A study of Mus musculus with 4 samples.

Results

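The genes described here are 10 genes of glutathione synthesis and antioxidant defence, *Gclc*, *Gclm*, *Gss*, *Gsr*, *Gpx1*, *Gpx4*, *Prdx6*, *Cat*, *Sod1* and *Sod2*, in the lenses of young mice with a hyperactive PDGFRβ and of control mice. They were chosen by gene symbol for the reactions their products carry out, with earlier results of these data known. All 10 were found among the 56748 genes of the deposited table. Lenses were collected at 10 to 12 days of age, and a library holds the pooled lenses of several mice. The 2 mutant libraries were labelled *Fsp1-cre;Pdgfrb+/D849V*, in which the *D849V* allele is knocked into the endogenous *Pdgfrb* locus and switched on by a cre driven from the *Fsp1* (*S100a4*) promoter, which is not specific to the lens. Both control libraries were labelled *Fsp1-cre;Pdgfrb+/+*, whereas the methods of the study describe control pools that also held *Pdgfrb+/+* and *Pdgfrb+/D849V* mice without cre. The line was on the FVB/N background and was bred with a *Rosa-LSL-tdTomato* reporter. The study describes robust reporter activity in the lens epithelium from an age later than these 10 to 12 days. It assumes, without showing it, that the mutant receptor is made once cre is on. Pooling leaves 2 libraries per group, so that n = 2 for every group value below, and errors are the SD of 2 libraries.

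The lens lies in the path of light, has no blood supply once mature and keeps its proteins for life. The study describes hyaloid vessels that feed the lens during development. Per the study, they are largely lost at the age sampled here but not yet fully regressed, and unremoved vessels could confound the expression values. The lens is known for a very high concentration of the tripeptide glutathione. Glutathione is made from glutamate, cysteine and glycine by glutamate-cysteine ligase, of which *Gclc* encodes the catalytic and *Gclm* the modifier subunit, and by glutathione synthetase (*Gss*). Peroxidases spend reduced glutathione on hydrogen peroxide and lipid peroxides, glutathione reductase (*Gsr*) returns the oxidised form with NADPH, and superoxide dismutases and catalase act on superoxide and hydrogen peroxide directly. Many genes of this system are known targets of the transcription factor NRF2 (*Nfe2l2*), which binds antioxidant response elements.

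The libraries were of similar depth, with 18561682 to 18878768 reads recovered per library from the deposited FPKM (fragments scaled by gene length and library). The divisor of a library was 0.944 to 1.05 times its recovered reads, so that the scaling was not by depth alone. Crystallin genes took 58.6% to 62.9% of the reads. Lens fibre markers summed to between 177920 and 211758 FPKM and lens epithelium markers to between 134 and 160 FPKM. *Lim2*, an abundant lens fibre membrane protein gene, was listed at 0 in all 4 libraries, so that a 0 in this table need not mean an absent transcript. Markers of other cells were low in every library, with sums of 17.2 to 34.9 FPKM for red blood cells, 5.65 to 8.62 for vessel endothelium, 14.8 to 17.1 for pericytes and mesenchyme, 6.003 to 7.06 for pigment and ciliary epithelium, 0.325 to 2.68 for retina and 0.526 to 2.23 for macrophages. The macrophage sum was 2.23 and 2.17 FPKM in mutant libraries against 1.09 and 0.526 FPKM in control libraries. All 4 of its genes tested were higher in the mutant mean. So were all 4 retina genes tested, whose sum was 0.325 and 2.68 FPKM in mutant against 1.07 and 0.431 FPKM in control libraries. By contrast, 3 of 3 red blood cell and 5 of 6 endothelium genes tested were lower in the mutant mean. The same held for 1 of 4 pericyte and mesenchyme genes and 2 of 4 pigment and ciliary epithelium genes. No marker had an adjusted p under 0.05 by limma, and their part in the values below was not tested. *Pdgfrb* itself had between 1.79 and 2.36 FPKM, and a value per gene does not separate the *D849V* transcripts from wild-type ones. *Xist*, which is transcribed in female cells, was at 7.62 FPKM in mutant replicate 1 and 5.56 in control replicate 2, against 13.1 in mutant replicate 2 and 15.6 in control replicate 1. The former pair also had the higher crystallin shares, 62.9% and 61.5% against 58.6% and 59.0%.

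None of the 10 genes differed between mutant and control lenses in the test across all genes. By limma on log2(FPKM + 0.1), 0 of the 10 genes had an adjusted p under 0.05, beside 6 of all 15997 genes tested (0.0375%). At an unadjusted p under 0.05, 0 of the 10 were listed as well, where 6.31% of all genes tested were, 3.39% higher and 2.92% lower in the mutant mean. With voom, which models the recovered reads, the count was 0 of 10 at either threshold, beside 0.0875% of all genes at an adjusted p under 0.05 and 7.43% at an unadjusted p under 0.05. The log2 fold changes, mutant over control, ran from -0.22 for *Gsr* to 0.18 for *Sod1*, with 5 above and 5 below 0 and a median of 0.03. The median over all genes tested was 0.0041. All 10 genes passed the filter on a mean FPKM of at least 0.1.

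In the main fit, the 95% confidence intervals of the fold change lay within 1.5-fold in either direction for 10 of the 10 genes. The same held for 34.7% of all genes tested. It held for 75.5% of the 4834 genes tested whose mean FPKM lay in the range of the 10. Without a trend in limma's prior, *Gclc* had a p of 0.434 by limma in place of 0.305 at the same estimate, and thus a wider interval. Intervals of the alternative fits were not compared with this bound. The widest interval was that of *Gpx1*, from 0.781-fold to 1.46-fold. Smaller differences could not be seen with 2 libraries per group, and a p above the threshold does not show that the levels were equal. In bulk lens RNA, fewer cells of a type and less RNA per cell cannot be told apart.

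**Figure D1:**
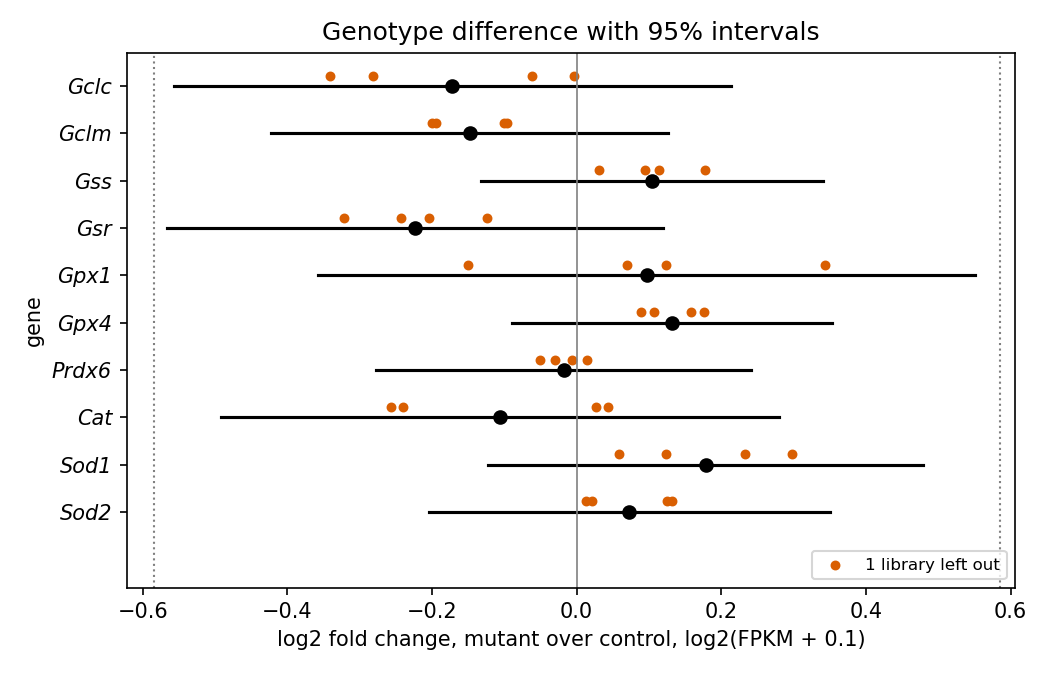
Log2 fold change of each antioxidant gene, mutant over control, on the log2(FPKM + 0.1) scale. Black points are the estimates from all 4 libraries with limma's 95% confidence intervals, orange points are the estimates with 1 library left out, and dotted lines mark 1.5-fold in either direction. Every interval includes 0 and lies between the dotted lines, and the orange points of *Gpx1*, *Cat* and *Prdx6* fall on both sides of 0.

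The levels of the 10 genes, as FPKM over the deposited gene lengths, spanned 27.5-fold. Those lengths ran from 1441 bases for *Gpx1* to 10008 for *Sod2*. The order of genes depends on them, and they were not checked against the transcripts present. *Gpx4* was highest at a mean of 66.1 FPKM over the 4 libraries, followed by *Gss* at 47.0. *Gclc* (20.9), *Cat* (19.1), *Sod1* (18.2) and *Gpx1* (14.9) formed a middle tier, *Sod2* (6.21), *Gclm* (5.76) and *Prdx6* (5.34) a lower one, and *Gsr* was lowest at 2.41. Among the 9 pairs of neighbours in this order, 5 had overlapping ranges over the 4 libraries, namely *Gclc* and *Cat*, *Cat* and *Sod1*, *Sod1* and *Gpx1*, *Sod2* and *Gclm*, and *Gclm* and *Prdx6*. The steps from *Gpx4* to *Gss*, from *Gss* to *Gclc*, from *Gpx1* to *Sod2* and from *Prdx6* to *Gsr* were free of overlap. Between the highest and the lowest library, a gene varied by 1.05-fold (*Prdx6*) to 1.41-fold (*Gpx1*). Among all genes tested, *Gpx4* stood at the 98.2 percentile of mean FPKM and *Gsr* at the 68.0 percentile.

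**Figure D2:**
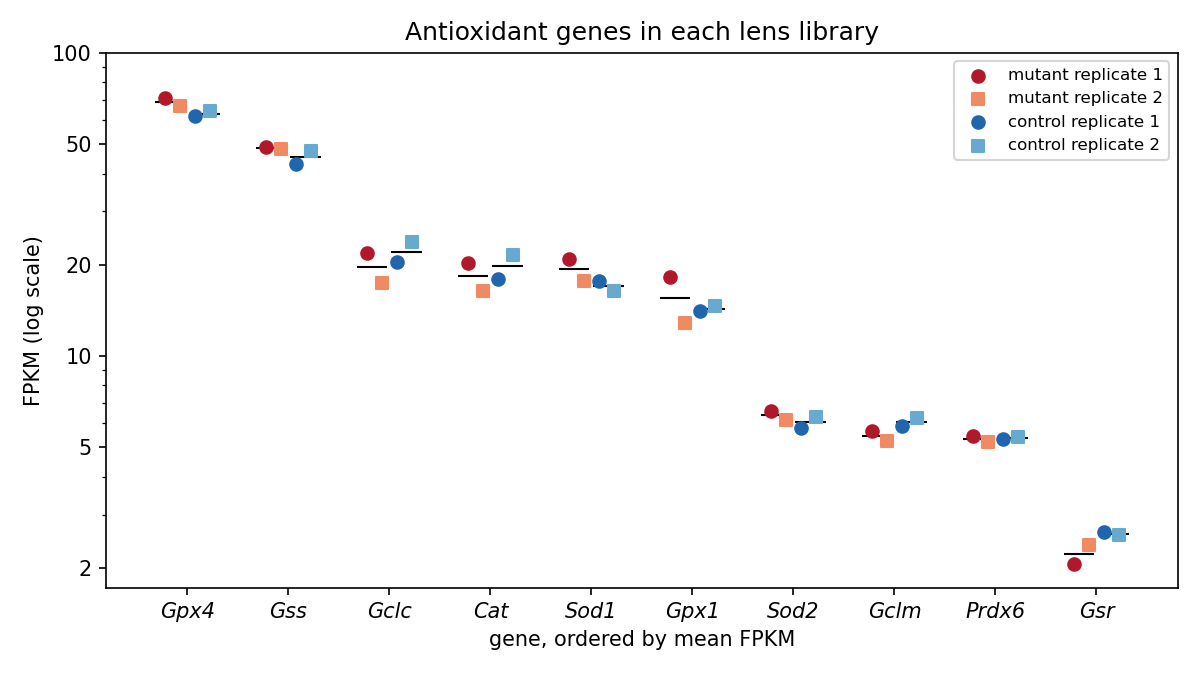
FPKM of the 10 antioxidant genes in each of the 4 lens libraries, on a log axis, ordered by mean level. Red and orange points are mutant replicates 1 and 2, dark and light blue points are control replicates 1 and 2, and black lines are the means of 2 libraries. The spacing between genes, from 66.1 FPKM for *Gpx4* to 2.41 for *Gsr*, is much wider than that between libraries of a gene.

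Of the 10 genes, 7 had a promoter window in the RefSeq tables for GRCm38.p6, with 10 windows in all since *Gpx4* has 4 windows, of which 2 overlap by 206 bases and share GC boxes. Each window of 300 bases runs from 250 bases before to 50 bases after a start site. A GC box (GGGCGG, either strand) was found in 9 of the 10 windows, against 35.7% of all 32851 promoter windows. The core of the antioxidant response element, TGACNNNGC on either strand, was found in 2 of the 10 windows, those of *Gclm* and *Sod1*, against 12.4% of all windows, and the AP-1 site TGANTCA was in 0 of 10, against 7.81%. A match is a run of letters and not evidence of binding. The 250 bases before the start sites of these 2 genes are shown because they hold the only matches to the core among the members' windows. Capitals mark the match, which lies on the minus strand in both.
*Gclm* (GRCm38.p6, plus strand, chr3:122245307-122245556): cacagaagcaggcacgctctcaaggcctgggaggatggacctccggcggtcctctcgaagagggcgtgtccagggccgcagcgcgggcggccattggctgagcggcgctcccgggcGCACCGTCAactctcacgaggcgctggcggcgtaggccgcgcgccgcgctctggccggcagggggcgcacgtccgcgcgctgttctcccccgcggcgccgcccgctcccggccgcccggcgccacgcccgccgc
*Sod1* (GRCm38.p6, plus strand, chr16:90220512-90220761): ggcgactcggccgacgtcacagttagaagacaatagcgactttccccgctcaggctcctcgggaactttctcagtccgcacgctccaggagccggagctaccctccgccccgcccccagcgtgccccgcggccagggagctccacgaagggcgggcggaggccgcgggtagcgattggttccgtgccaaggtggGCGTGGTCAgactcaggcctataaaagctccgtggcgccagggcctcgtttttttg
The *Gclm* match starts 134 bases and the *Sod1* match 56 bases before the start site. The *Gclm* window is 79.7% G and C with 48 CpG, against medians of 52.7% and 7 over all windows, and the windows of the 7 genes ranged from 47% to 79.7%. The log2 fold changes of these 2 genes, -0.15 for *Gclm* and 0.18 for *Sod1*, each had an interval that includes 0. The part of the core in them was not tested.

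*Gclc*, the catalytic subunit of the enzyme that limits glutathione synthesis (ENSMUSG00000032350, mm39 chromosome 9, 77661817 to 77701767), had 21.95 and 17.4 FPKM in mutant replicates 1 and 2 and 20.4 and 23.8 FPKM in control replicates 1 and 2. The groups overlapped, and the spread within the mutant pair was larger than the distance between the group means of 19.7 ± 3.25 and 22.1 ± 2.38 FPKM. Its log2 fold change was -0.17 (SE 0.15, adjusted p = 0.812 by limma). Leaving out mutant replicate 2 brought it to -0.0034, and leaving out mutant replicate 1 to -0.34.

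*Gclm*, whose product raises the efficiency of the catalytic subunit (ENSMUSG00000028124, mm39 chromosome 3, 122039206 to 122064381), had 5.66 and 5.26 FPKM in mutant libraries against 5.86 and 6.26 FPKM in control libraries. Both mutant libraries lay below both control libraries, and the log2 fold change was -0.15 (SE 0.11, adjusted p = 0.810 by limma). Of the 6330 words of 31 bases in its GENCODE transcripts, 225 also occur in transcripts of the cyclophilin gene *Ppia*, which had 8959 to 13953 reads per library, and 214 in the *Ppia*-like pseudogene *Gm10123*, which had 7419 and 4011 reads in mutant replicates 1 and 2 but 1269 and 1388 in control replicates 1 and 2. The *Gclm* count was 635 to 726 reads, and reads from the shared words are uncertain.

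*Gss*, the synthetase that adds glycine (ENSMUSG00000027610, mm39 chromosome 2, 155405101 to 155434730), had 49.0 and 48.3 FPKM in mutant libraries against 43.1 and 47.6 FPKM in control libraries. Both mutant libraries were above both control libraries, by less than 1 FPKM in the closest pair, and the log2 fold change was 0.10 (SE 0.09, adjusted p = 0.815 by limma). Of the 3 synthesis genes, *Gclc* and *Gclm* thus had estimates below and *Gss* above 0, each with an interval that includes 0.

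*Gsr*, the reductase that regenerates glutathione (ENSMUSG00000031584, mm39 chromosome 8, 34142551 to 34188191), was the least abundant member, with 2.06 and 2.37 FPKM in mutant libraries against 2.63 and 2.56 FPKM in control libraries. These values rest on 101, 128, 141 and 130 reads, and counting error alone is 9.95% at 101 reads. Both mutant libraries were below both control libraries. The log2 fold change of -0.22 (SE 0.13, adjusted p = 0.810 by limma) was the lowest of the 10.

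*Gpx4* encodes the selenoenzyme that reduces phospholipid peroxides in membranes (ENSMUSG00000075706, mm39 chromosome 10, 79883000 to 79892273). It had 71.2 and 67.01 FPKM in mutant libraries against 61.9 and 64.2 FPKM in control libraries, so that the groups did not overlap. The log2 fold change was 0.13 (SE 0.09, adjusted p = 0.810 by limma). Of the 1767 words of its transcripts, 688 (38.9%) also occur in transcripts of other genes, most of them in the pseudogene *Gpx4-ps2*, with 455, 435, 388 and 427 reads in mutant replicates 1 and 2 and control replicates 1 and 2, beside 2189, 2262, 2075 and 2039 reads of *Gpx4*. How reads were split between the pair is therefore uncertain.

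*Gpx1*, a soluble selenoenzyme that reduces hydrogen peroxide (ENSMUSG00000063856, mm39 chromosome 9, 108216102 to 108217542), had 18.2 and 12.9 FPKM in mutant libraries against 14.1 and 14.6 FPKM in control libraries. The mutant libraries lay on either side of both control libraries. With group means of 15.6 ± 3.76 and 14.3 ± 0.386 FPKM, it had the largest spread within a group relative to its level. Its log2 fold change of 0.10 (SE 0.18, adjusted p = 0.920 by limma) was -0.15 without mutant replicate 1 and 0.34 without mutant replicate 2.

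*Prdx6*, a peroxiredoxin that uses glutathione and also has phospholipase activity (ENSMUSG00000026701, mm39 chromosome 1, 161067682 to 161078789), was the steadiest of the 10. Its values were 5.43 and 5.19 FPKM in mutant libraries against 5.33 and 5.42 FPKM in control libraries, on 465 to 498 reads. The log2 fold change was -0.02 (SE 0.10, adjusted p = 0.981 by limma), with a 95% interval of the fold from 0.825 to 1.18.

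*Cat*, the peroxisomal catalase (ENSMUSG00000027187, mm39 chromosome 2, 103284194 to 103315505), had 20.3 and 16.5 FPKM in mutant libraries against 17.9 and 21.6 FPKM in control libraries. The ranges of the groups overlapped, with the lowest value in a mutant and the highest in a control library, and the log2 fold change was -0.11 (SE 0.15, adjusted p = 0.891 by limma). It was 0.04 without mutant replicate 2 and 0.03 without control replicate 2.

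*Sod1*, the copper and zinc superoxide dismutase of the cytosol (ENSMUSG00000022982, mm39 chromosome 16, 90017642 to 90023217), had 21.0 and 17.7 FPKM in mutant libraries against 17.7 and 16.4 FPKM in control libraries. The lower mutant value exceeded the higher control value only in the next digit, 17.73 against 17.68. Its log2 fold change of 0.18 (SE 0.12, adjusted p = 0.810 by limma) was the highest of the 10, and was 0.06 without mutant replicate 1. The gene body overlaps *Scaf4* on the opposite strand, and since the sources used here do not say whether strand was used in counting, reads in the overlap cannot be assigned with certainty.

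*Sod2*, the manganese enzyme of the mitochondrial matrix (ENSMUSG00000006818, mm39 chromosome 17, 13225733 to 13258950), had 6.61 and 6.14 FPKM in mutant libraries against 5.80 and 6.31 FPKM in control libraries. The groups overlapped, and the log2 fold change was 0.07 (SE 0.11, adjusted p = 0.897 by limma). Of 10012 words in its transcripts, 2660 occur in transcripts of other genes, 2199 of them in the long non-coding RNA *Gm36684*, which had 74 to 105 reads per library, and 2001 in the kinase gene *Rps6ka2*, which had 778 to 1050. With 1129 to 1203 reads of *Sod2* itself, how reads were split between these genes is uncertain.

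In total, 5 of the 10 genes had groups that did not overlap, *Gss*, *Gpx4* and *Sod1* with higher and *Gclm* and *Gsr* with lower values in the mutant libraries, beside 36.6% of all genes tested (18.2% higher and 18.3% lower). The other 5 shared a different order of the libraries. *Gclc*, *Gpx1*, *Prdx6*, *Cat* and *Sod2* were higher in both mutant replicate 1 and control replicate 2 than in either other library, an order seen in 16.9% of all genes tested, and 0 of the 10 genes had the opposite order, seen in 15.5%. These are the libraries with the lower *Xist* and the higher crystallin share given above, and the part of either in the values was not tested.

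Ratios within a library do not depend on the scaling of the library, but do depend on the gene lengths used. *Gclc* was at 3.88 and 3.30 times *Gclm* in the mutant and at 3.48 and 3.79 times in the control libraries. Its FPKM was thus the higher in all 4. *Gpx4* was at 3.91 to 5.19 times *Gpx1*, with both extremes in the mutant libraries. *Sod1* was at 2.60 to 3.17 times *Sod2* and *Cat* at 1.11 to 1.48 times *Gpx1*. *Gss* was at 23.8 and 20.4 times *Gsr* in the mutant and at 16.4 and 18.6 times in the control libraries, and at 2.23 and 2.79 times *Gclc* in the mutant against 2.11 and 2.01 times in the control libraries. For these pairs of *Gss* the mutant ratios lay above the control ratios, and no test was made of them.

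**Figure D3:**
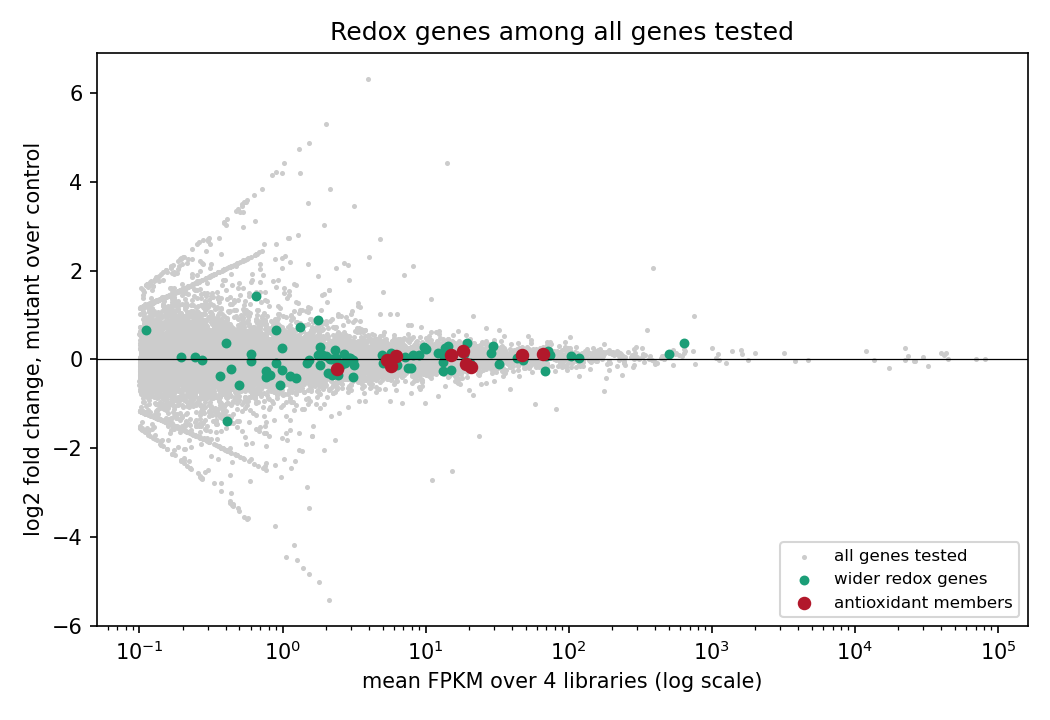
Log2 fold change, mutant over control, against mean FPKM over the 4 libraries on a log axis. Grey points are the 15997 genes tested, green points the wider redox genes and red points the 10 antioxidant genes. The red points lie between -0.22 and 0.18 around the line at 0, inside the cloud of genes of like level, and the spread of all genes widens toward low FPKM.

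A wider set of 104 genes that supply, use or regulate the same chemistry was divided into 12 lists, and 84 of them passed the filter on FPKM. The lists were chosen with earlier results of these data known. Shares of them set beside all genes are therefore a description and not an independent test. At an adjusted p under 0.05, limma called 0 of the 84 and voom 0 of the 84. At an unadjusted p under 0.05, 11 of 84 (13.1%) were listed by limma, 6 higher and 5 lower in the mutant mean, beside 6.31% of all genes tested, and 13 of 84 (15.5%) by voom, beside 7.43%. With libraries scaled to an equal sum of FPKM, 5 of 84 (5.95%) were listed by limma, beside 4.13% of all genes tested, and without a trend in the prior 4 of 84 (4.76%), beside 5.92%. The count was 6 without mutant replicate 1, 6 without mutant replicate 2, 5 without control replicate 1 and 4 without control replicate 2, beside 4.92% to 9.15% of all genes tested. The median log2 fold change of the 84 was 0.03.

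*Slc3a2*, the heavy chain of the cystine exchanger and of other amino acid transporters, was at 47.4 and 49.3 FPKM in mutant libraries against 49.0 and 46.0 FPKM in control libraries, with a log2 fold change of 0.03 (SE 0.09, adjusted p = 0.960 by limma) that turned to -0.02 with libraries scaled to an equal sum of FPKM. Its light chain for cystine, *Slc7a11*, which was looked at after the values were seen, was at 0.286 to 0.521 FPKM. The neutral amino acid carrier *Slc1a5* had 0.780 and 0.710 FPKM in mutant libraries against 1.05 and 1.30 FPKM in control libraries, a log2 fold change of -0.59 (SE 0.19, adjusted p = 0.749 by limma). Of the 7 genes in this list 4 were tested. *Slc1a5* was the 1 with an unadjusted p under 0.05 by limma, beside 6.31% of all genes tested.

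Among 9 genes of glutathione breakdown and export tested, 2 had an unadjusted p under 0.05 by limma, beside 6.31% of all genes tested. Both were higher in the mutant mean. *Chac1*, which cleaves glutathione in the cytosol, had 1.37 and 0.655 FPKM in mutant libraries against 0.314 and 0.265 FPKM in control libraries, on 40, 21, 10 and 8 reads. Its log2 fold change of 1.44 (SE 0.37, adjusted p = 0.681 by limma) lay between 0.96 and 1.92 with each library left out, the lowest without mutant replicate 1. *Ggct* was at 15.8 and 15.8 FPKM in mutant libraries against 12.4 and 13.1 FPKM in control libraries. Its log2 fold change was 0.31 (SE 0.09, adjusted p = 0.717 by limma). For *Chac1* and *Ggct* the groups did not overlap.

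Among the other thiol systems, *Prdx2* at 71.5 FPKM and *Prdx1* at 69.8 FPKM had higher mean levels than any of the 10 genes. *Prdx1* was looked at after the values were seen. *Prdx2*, a peroxiredoxin that draws on thioredoxin, had 78.8 and 73.1 FPKM in mutant libraries against 63.9 and 70.3 FPKM in control libraries, a log2 fold change of 0.18 (SE 0.10, adjusted p = 0.810 by limma), and *Prdx4* one of 0.28 (SE 0.13, adjusted p = 0.809 by limma). In the thioredoxin system, 2 of 6 genes had an unadjusted p under 0.05 by limma, beside 6.31% of all genes tested. Thioredoxin itself, *Txn1*, had 23.2 and 20.7 FPKM in mutant libraries against 18.5 and 15.6 FPKM in control libraries, with a log2 fold change of 0.36 (SE 0.12, adjusted p = 0.769 by limma). Its inhibitor *Txnip* had 1.62 and 1.73 FPKM in mutant libraries against 1.004 and 0.938 FPKM in control libraries, and its log2 fold change of 0.73 (SE 0.15, adjusted p = 0.542 by limma) had the smallest p of the 84. Among 7 glutaredoxins and methionine sulfoxide reductases, where 0 had an unadjusted p under 0.05, *Glrx3* was highest at a mean of 13.4 FPKM with a log2 fold change of 0.07, and *Glrx2* had 0.27.

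Of the other glutathione peroxidases 3 of 6 were tested, with *Gpx8* at a mean of 13.7 FPKM and *Gpx3*, the secreted form, at 0.895 FPKM and a log2 fold change of 0.67 (SE 0.28, adjusted p = 0.806 by limma). The copper chaperone *Atox1* was at a mean of 32.8 FPKM, with a log2 fold change of -0.11. *Ccs*, which loads copper into the *Sod1* product, had 11.1 and 10.7 FPKM in mutant libraries against 8.92 and 9.74 FPKM in control libraries, a log2 fold change of 0.22 (SE 0.10, adjusted p = 0.809 by limma).

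Glutathione S-transferases, which attach glutathione to electrophiles, had 17 of 24 genes tested. Of these, 1 had an unadjusted p under 0.05 by limma, beside 6.31% of all genes tested. *Gstm1* was the most abundant, at 128 and 109 FPKM in mutant libraries against 116 and 117 FPKM in control libraries, with a log2 fold change of 0.02 (SE 0.11, adjusted p = 0.980 by limma) that was -0.02 at an equal sum of FPKM. *Gstk1*, the mitochondrial and peroxisomal member, had 2.75 and 1.95 FPKM in mutant libraries against 1.37 and 1.07 FPKM in control libraries, a log2 fold change of 0.88 (SE 0.22, adjusted p = 0.681 by limma). The enzymes of NADPH supply, on which *Gsr* depends, showed the narrowest range of the 12 lists, from -0.12 to 0.13 over 10 genes, and *Idh2* and *Pgls* had log2 fold changes of -0.02 and 0.13.

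**Figure D4:**
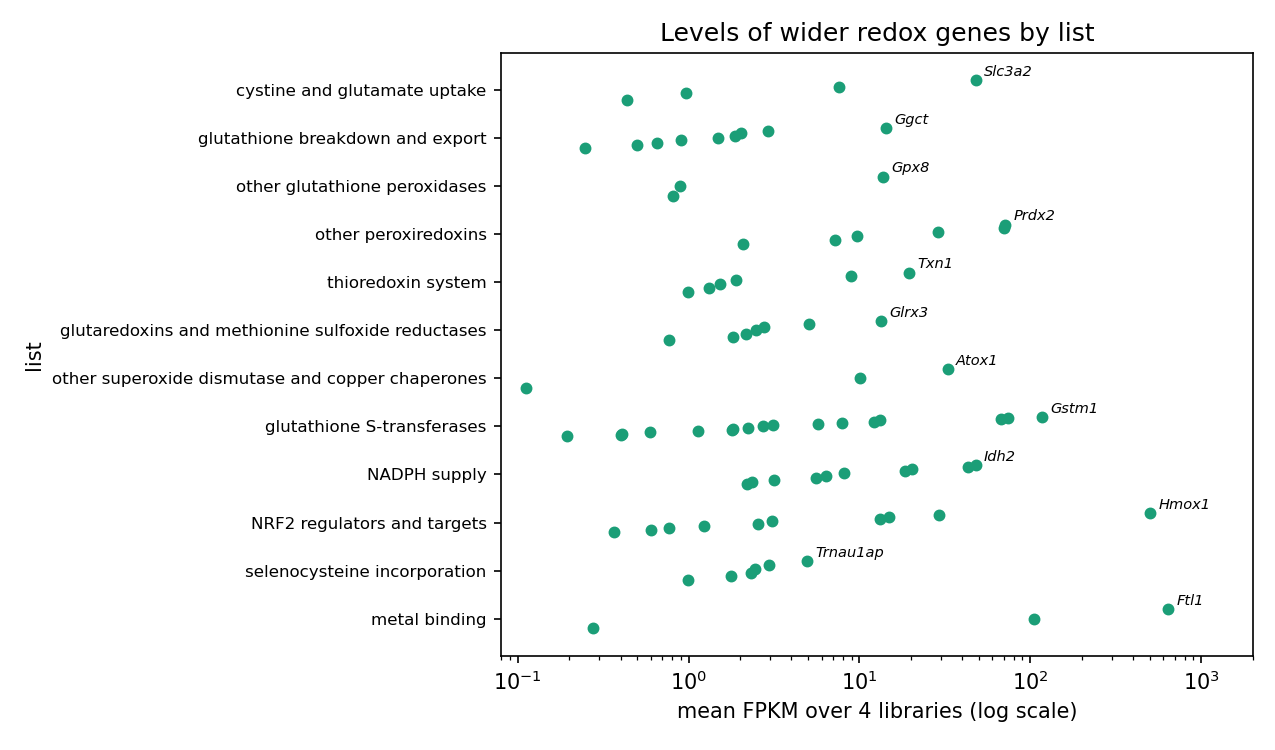
Mean FPKM over the 4 libraries, on a log axis, of the 84 wider redox genes tested, by list. Each point is a gene, and the highest gene of each list is named. *Ftl1* and *Hmox1*, at 640 and 503 FPKM, stand above every other gene shown.

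Regulators and targets of NRF2 had 8 of 10 log2 fold changes below 0, with a median of -0.26, beside the median of 0.0041 over all genes tested. *Keap1*, which holds NRF2 for degradation, had 2.49 and 2.81 FPKM in mutant libraries against 3.28 and 3.79 FPKM in control libraries, a log2 fold change of -0.40 (SE 0.14, adjusted p = 0.769 by limma). Beside these, 49.3% of all genes tested were below 0, and the list mixes activators, repressors and targets. Of the 10 genes, 3 had an unadjusted p under 0.05 by limma, all lower in the mutant mean, beside 6.31% of all genes tested. Apart from *Keap1* these were *Nfe2l1* (-0.27) and *Mafg* (-0.24), named because the count is small. By voom the count was 4 of 10, beside 7.43% of all genes tested. The exceptions in sign were *Hmox1* and the autophagy receptor *Sqstm1*, which was looked at after the values were seen and had 34.1 and 30.6 FPKM in mutant libraries against 24.5 and 28.4 FPKM in control libraries, without overlap, and a log2 fold change of 0.29 (SE 0.12, adjusted p = 0.788 by limma). *Hmox1*, haem oxygenase 1, was very abundant, with 565 and 482 FPKM in mutant libraries against 429 and 535 FPKM in control libraries, and its groups overlapped at a log2 fold change of 0.12 (SE 0.15, adjusted p = 0.875 by limma). *Nqo1*, another widely used NRF2 target that was looked at after the values were seen, was at 0.542 to 1.03 FPKM, and *Nfe2l2* at 2.40 to 2.89 FPKM.

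Ferritin light chain, *Ftl1*, which stores iron with *Fth1*, was the most abundant gene of the wider set, with 760 and 679 FPKM in mutant libraries against 513 and 607 FPKM in control libraries. The groups did not overlap, and the log2 fold change was 0.36 (SE 0.13, adjusted p = 0.783 by limma). The metallothionein *Mt1*, by contrast, was at 0.225 to 0.328 FPKM, and *Mt2* was listed at 0. Of the 6 genes for selenocysteine incorporation, which both *Gpx1* and *Gpx4* need, *Sephs2* had 2.22 and 2.04 FPKM in mutant libraries against 2.91 and 2.57 FPKM in control libraries, a log2 fold change of -0.35 (SE 0.13, adjusted p = 0.788 by limma), and *Trnau1ap*, the highest at a mean of 4.94 FPKM, had 0.11.

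**Figure D5:**
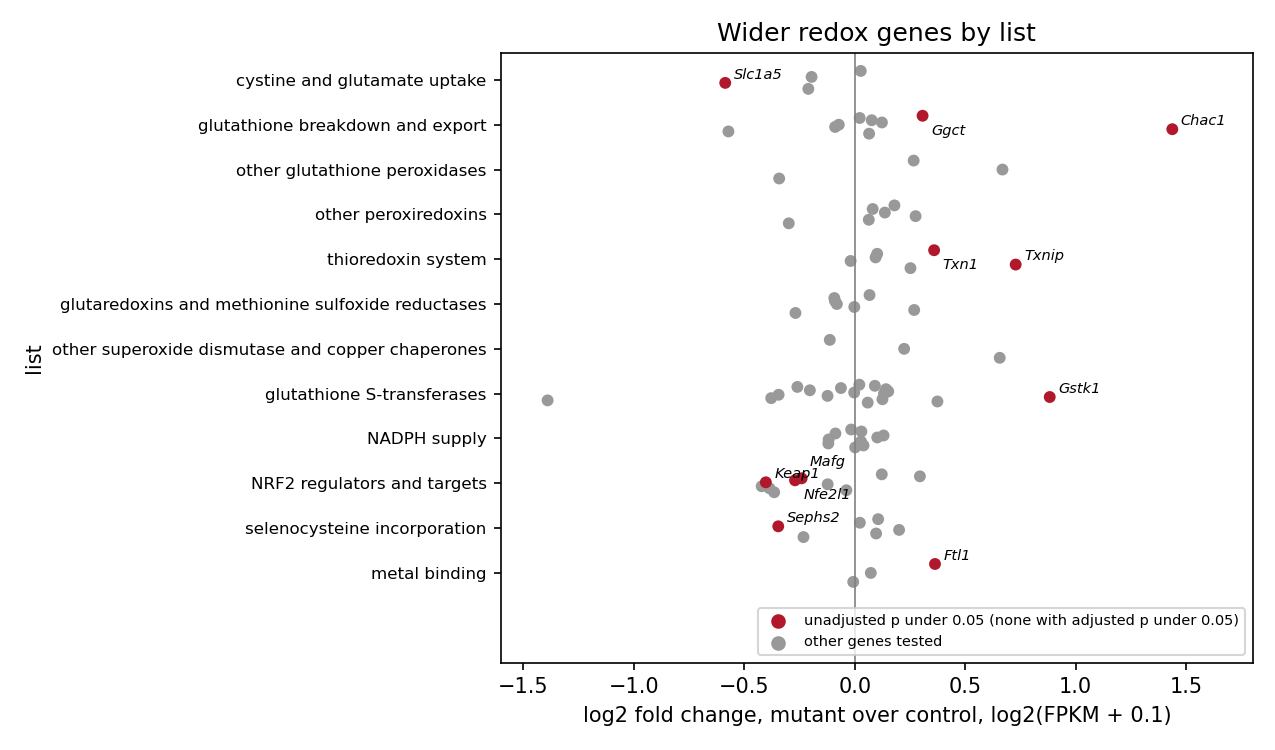
Log2 fold change, mutant over control, on the log2(FPKM + 0.1) scale, of the 84 wider redox genes tested, by list. Red points are the 11 genes with an unadjusted p under 0.05 in limma's test, which are named, and grey points the others. The named genes lie on both sides of 0, from *Slc1a5* at -0.59 to *Chac1* at 1.44, and none passed the adjusted threshold.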

How the data were processed

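RNA of pooled lenses was sequenced in 2 mutant and 2 control libraries. Per the methods of the study, the authors' provider aligned reads with HISAT2 and counted them per gene with featureCounts, and the deposited values are FPKM of 56748 genes, with gene lengths and positions. The submitters' processing notes name the build mm39. Controls are labelled with 1 genotype although the methods describe mixed pools, and the effect of this on the values was not tested. The pools are the replicates, and no source says that they shared a litter or day.

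For testing, FPKM were scaled by the median over genes of the ratio to their geometric mean (1.01 in each library, which leaves comparisons between libraries as deposited). The 15997 genes whose mean FPKM reached 0.1 entered limma's moderated linear model (trended prior, two-sided) as log2(FPKM + 0.1), a scale that understates changes of low genes, and p-values were adjusted over all of them by Benjamini-Hochberg. With 2 pools a group they measure only the spread between these libraries. FPKM times length gave whole multiples of 1 step for 100% of values (tolerance 0.01 reads), and these reads were used in voom. The members and lists were chosen with earlier results of these data known. All members are named, and from each wider list the gene with the highest level, the one with the smallest p and any with an adjusted p under 0.05. *Slc7a11*, *Prdx1*, *Nqo1*, *Nfe2l2*, *Mt1*, *Mt2*, *Fth1*, *Sqstm1*, *Nfe2l1* and *Mafg* are outside the rule and were picked once values had been seen. So were the shared words of 31 bases, counted in GENCODE M21 (GRCm38) transcripts, and the promoter motifs. The tests were tried on simulated reads. Alternatives were other pseudocounts, filters and scalings, no trend, voom, a replicate block, a covariate for high or low *Xist* and leaving out each library. The software was limma 3.58.1 in R 4.3.3 and pandas 2.3.3 in Python 3.11.15.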

Additional observations from a re-analysis of the deposited data

How the results depend on the processing

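No antioxidant gene and none of the wider redox genes reached an adjusted p under 0.05 under any alternative run, and outside the fits that left out a library the 10 antioxidant genes had adjusted p from 0.730 to 0.994. Only 5 of the 11 settings without a left-out library (both pseudocounts, both equal sums and voom) can move their estimates, and in those 50 comparisons no sign changed. The count over all genes, 6, was 2 with a pseudocount of 1, 2 with one of 0.01, 1 with no filter, 2 with a mean FPKM of at least 1, 2 without a trend, 14 with voom, 2 with the replicate block and 1 with the *Xist* covariate, and lay between 0 and 0 with each library left out. No source pairs the libraries by replicate number, and the correlation of same-numbered deviations over all genes tested was -0.0051. Such a value cannot exclude a shared litter or day. With the block, 7 of the 84 wider genes (8.33%) had an unadjusted p under 0.05 in place of 11, beside 5.48% of all genes. The *Xist* covariate marks libraries above or below the mean, 1 of each in a group, so that it cannot move an estimate. With 1 library left out, a lone library is assumed to vary like the others. The log2 fold change then lay between -0.15 and 0.34 for *Gpx1*, -0.050 and 0.014 for *Prdx6*, -0.26 and 0.044 for *Cat*, -0.019 and 0.073 for *Slc3a2*, -0.012 and 0.15 for *Glrx3*, -0.097 and 0.14 for *Gstm1*, -0.041 and 0.0086 for *Idh2* and -0.036 and 0.28 for *Hmox1*. At an equal sum of FPKM, *Slc3a2* was at -0.015 and *Gstm1* at -0.022, and without crystallins in that sum at -0.021 and -0.028. The cause of these shifts was not tested. Without mutant replicate 2, 1 of the 10 genes, *Gpx1*, had an unadjusted p under 0.05. The median of the 10 genes lay between -0.09 and 0.08 with each library left out. Against 0.028 in the main fit, it was -0.014 at an equal sum of FPKM and -0.020 without crystallins in that sum. Among the 10 genes counting error is largest for *Gsr*, and several named wider genes, such as *Mt1* with 5 to 8 reads and *Chac1* with 8 to 40, had fewer reads.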
